A study of Homo sapiens with 6 samples.

Results

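The secreted and membrane-anchored zinc proteases that cut the extracellular matrix, and the inhibitors that hold them in check, were examined in H2452 cells, an established pleural mesothelioma line, with and without CRISPR targeting of *NF2*. The members are all protein-coding genes of the count table that are named as an MMP (matrix metalloproteinase), an ADAM (a disintegrin and metalloproteinase), an ADAMTS (an ADAM with thrombospondin motifs) or a TIMP (tissue inhibitor of metalloproteinases). They are 66 of the 58735 genes listed: 23 MMPs, 20 ADAMs, 19 ADAMTS genes and 4 TIMPs. The series compared 3 libraries carrying a scrambled control guide (sgCtrl, genotype label WT) with 3 libraries carrying an *NF2*-targeting guide (sg*NF2*-1, genotype label NF2-KO). Both groups received a lentiviral vector with Cas9 and mCherry, were sorted for mCherry according to the study's methods, and were grown in RPMI-1640 with serum. The methods describe the sorted cells as populations and call the study's replicates biological in general terms. Neither they nor the labels say that the 3 libraries of a group came from separate cultures, and p-values measure the spread between these libraries.

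MMPs and ADAMs are made as inactive precursors, and most become active once a prodomain has been removed, often by furin-like convertases. At the cell surface, MMP14 (MT1-MMP) binds TIMP2, and the pair captures and activates the precursor of MMP2, a gelatinase. ADAM10 and ADAM17 are sheddases, which release the outer parts of membrane proteins such as Notch, growth factor precursors and TNF. ADAMTS enzymes act in the matrix itself, where some cut the proteoglycans versican and aggrecan and others remove the N-terminal propeptide of fibrillar procollagens. *NF2* encodes merlin, an upstream component of the Hippo pathway, whose effectors YAP and TAZ act in the nucleus through TEAD factors.

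Most of the measured members were lower in sg*NF2*-1. Of the 33 members with enough counts to be tested, 19 were lower, 3 were higher and 11 did not reach significance. Significance here is an adjusted p under 0.05 by the quasi-likelihood test of edgeR, fitted and adjusted over all 14179 tested genes. Over all tested genes 34.3% were called in either direction, 17.7% higher and 16.6% lower, against 66.7%, 9.09% and 57.6% of the tested members. Members whose groups do not overlap in CPM (the count relative to the TMM-scaled library total) numbered 21 of 33, against 45.3% of all tested genes. The median log2 fold change of the tested members was -0.45, and that of all tested genes was -0.0025. With a further limit of 0.5 on the absolute log2 fold change, 14 members were lower and 2 higher, against 9.32% and 8.42% of all tested genes. By family, 8 of 11 tested ADAMs, 5 of 10 ADAMTS genes, 3 of 8 MMPs and 3 of 4 TIMPs were lower, and the higher members were *MMP24*, *ADAMTS1* and *ADAMTS6*. These shares describe the members, which are not independent of one another, and no test of the list was made.

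**Figure D1:**
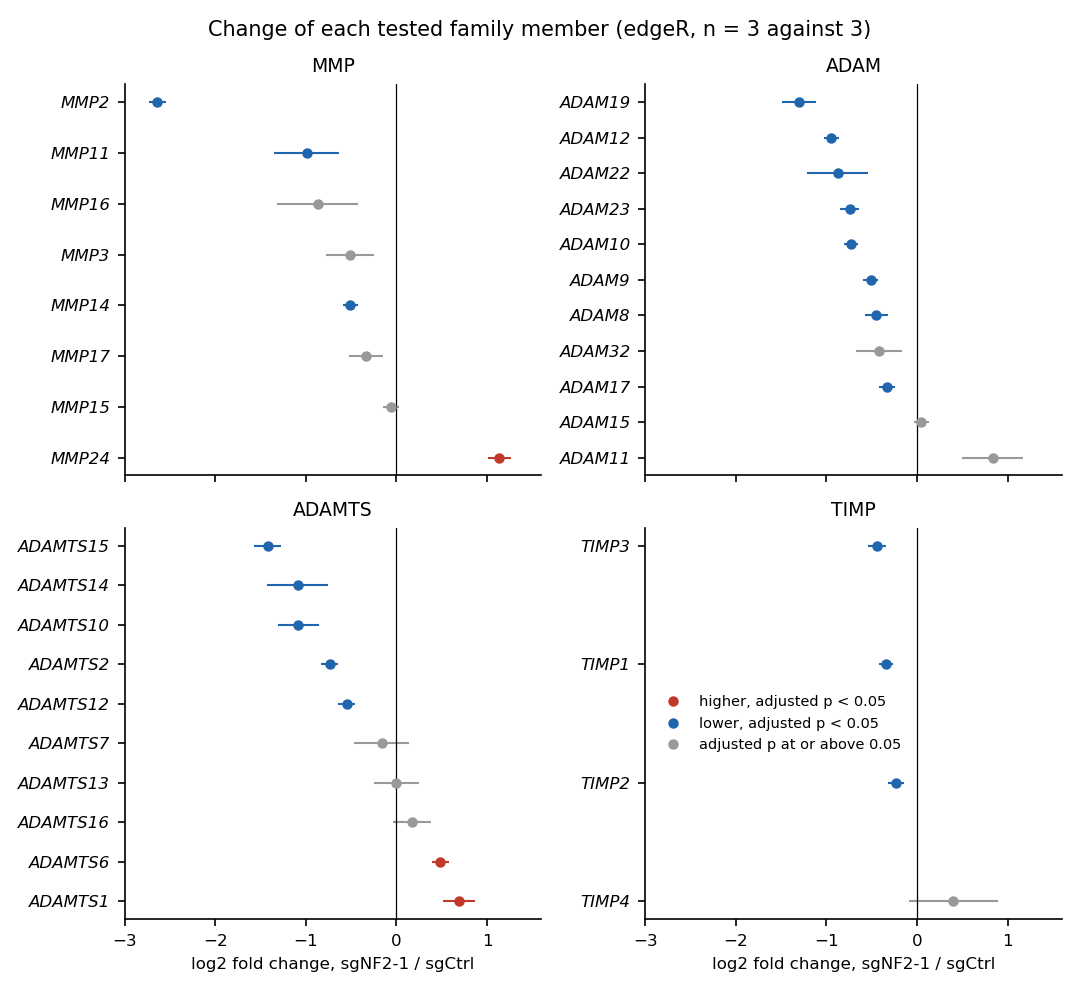
Log2 fold change of each tested member in sg*NF2*-1 against sgCtrl, from edgeR, in 1 panel per family; bars are 1 standard error and colour marks the call at an adjusted p of 0.05. The 19 lower members lie left of 0, down to *MMP2* at -2.64, and the 3 higher ones are *MMP24* at 1.14, *ADAMTS1* at 0.69 and *ADAMTS6* at 0.49.

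The libraries held between 14782423 and 17416463 counts. No library was a repeat of another: the chi-square of the counts, divided by its degrees of freedom, was 5.08 to 12.3 for pairs of 1 group and 39.2 to 51.6 across groups. For *NF2* itself, the counts of the sgCtrl libraries were 1162, 1197 and 1025, and those of the sg*NF2*-1 libraries, 692, 802 and 590, were all lower. This put *NF2* at 62.0% of the mean sgCtrl CPM (log2 fold change -0.69, standard error 0.10, edgeR adjusted p = 7.9e-06). Of 8 mesothelial markers, *MSLN* and *KRT18* were higher and *WT1* was lower, and the summed level ranged from 2681 to 3025 CPM in sgCtrl and from 2559 to 3141 CPM in sg*NF2*-1. *KRT5* and *LRRN4* from that list were too low to be tested. The leukocyte list summed to 133 to 148 CPM in sgCtrl and 64.0 to 70.7 CPM in sg*NF2*-1, nearly all of it from *CD14*, which was called lower, with *PTPRC* at 0 in every library. The endothelial list summed to 6.19 to 8.53 CPM in sgCtrl and 1.93 to 3.24 CPM in sg*NF2*-1, with *PECAM1* called lower and *TEK* at 0. The fibroblast list summed to 49.1 to 50.4 CPM in sgCtrl and 9.27 to 11.9 CPM in sg*NF2*-1, with *COL1A1*, *COL3A1* and *THY1* called lower and *DCN* and *LUM* at 0. The part of these marker lists in the results below was not tested. All libraries were of the H2452 line. In bulk RNA, fewer cells that express a gene and less of its RNA per cell cannot be told apart.

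The family spanned the whole range from abundant to undetected. Per length, as the deposited FPKM (fragments per gene length and library depth), 3 members had a mean of at least 100 over the 6 libraries, 9 of at least 10 and 21 of at least 1. *ADAM9* (mean FPKM 202 in sgCtrl and 140.4 in sg*NF2*-1), *TIMP2* (182 and 154), *TIMP1* (177 and 138) and *MMP14* (99.0 and 68.9) led in both groups. Together these 4 genes made up between 76.6% and 78.5% of the members' summed FPKM in every library. *TIMP2* and *TIMP1* lay within each other's spread in sgCtrl, at 182 ± 14.2 and 177 ± 9.69 FPKM (SD, n = 3). In sg*NF2*-1 they were at 154 ± 13.8 and 138 ± 7.47 FPKM, with *ADAM9* at 140.4 ± 9.10, and the mean ± SD ranges of these 3 genes overlapped. *ADAM15*, *ADAM12*, *MMP15*, *MMP2*, *ADAM10* and *ADAM17* completed the 10 highest members.

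At the other end, 16 members had 0 counts in all 6 libraries, and a library's 0 allows up to 3 counts, or between 0.17 and 0.211 CPM, for counting error only. They are *MMP7*, *MMP8*, *MMP10*, *MMP12*, *MMP13*, *MMP20*, *MMP26*, *MMP27*, *ADAM2*, *ADAM7*, *ADAM18*, *ADAM28*, *ADAM29*, *ADAM30*, *ADAMTS19* and *ADAMTS20*. A further 14 members had between 1 and 30 counts in total, among them *MMP1* (interstitial collagenase), with counts of 7, 1 and 8 in sgCtrl and 0, 3 and 0 in sg*NF2*-1. *MMP9*, the other gelatinase, had counts of 2, 2 and 1 in sgCtrl and 1, 0 and 3 in sg*NF2*-1. *MMP21* had counts of 6, 3 and 1 in sgCtrl and 0 in each sg*NF2*-1 library, and *ADAMTS8* had 0 in every library but sg*NF2*-1 replicate 3, with 6. *MMP25*, *ADAM33* and *ADAMTS17* had over 30 counts in total and also did not pass the filter. Of these, *ADAM33* had counts of 15, 7 and 4 in sgCtrl and 0, 4 and 1 in sg*NF2*-1. No collagenase, matrilysin or other MMP outside the gelatinases, stromelysins and membrane types was therefore tested, and at this depth no statement on their direction was possible.

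The undetected MMPs lay largely in 1 place. The human MMP cluster on chromosome 11 (GRCh38, GENCODE release 29, 102520508 to 102955734) holds 9 of the 23 MMPs, and 7 of these 9 had 0 counts in every library. Only *MMP1* and *MMP3* of that cluster gave any count.

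Promoter windows are given for members at both ends of this range, to show their base composition and motif matches. RefSeq promoters (GRCh38.p14) were matched by symbol, and 38 of the 66 members had a single window, of which the 250 bases before the RefSeq start were used. That start can lie inside the gene as GENCODE bounds it, so some windows hold bases of the annotated gene. The windows of *ADAM17*, *ADAM29*, *ADAMTS13* and *MMP11*, for example, lie wholly inside it. For *ADAMTS12* the GENCODE gene reaches to 33892192, which takes in most of the window and both of its motif matches. The 21 tested members had a GC content between 52.4% and 80.8%, with a median of 73.6%. The 17 members that were not tested had between 32.8% and 76.4%, with a median of 41.6%, against a median of 58.0% over 35116 promoters. Those 35116 also hold the windows of genes with more than 1, while members with more than 1 were left out. The AP-1 motif TGANTCA and the TEAD motif GGAATG were searched on both strands. They can share bases at their ends, but the only member window with both holds them apart. TGANTCA stood in 6.57% of all promoters and in 4 of 38 members (10.5%), namely *ADAMTS12*, *MMP7*, *MMP10* and *MMP20*. GGAATG stood in 11.9% of all promoters and in 4 of 38 members (10.5%), namely *ADAM17*, *ADAMTS6*, *ADAMTS12* and *ADAMTS20*. Among the 14 members with a window that were called lower, 2 held GGAATG and 1 held TGANTCA. Of the 3 higher members, *ADAMTS6* and *MMP24* had a window, and only that of *ADAMTS6* held a match. A match is a description of the letters and says nothing of binding. The windows are written 5′ to 3′ in the gene's direction, with motif matches in capitals. *MMP7* and *MMP10* are shown as undetected members of the chromosome 11 cluster, both with TGANTCA beginning at position -67 from the start. *ADAMTS6* is a higher member with GGAATG at position -200. *ADAMTS12* is a lower member with both motifs, GGAATG read on the opposite strand at position -119 and TGANTCA at -84. *MMP24* is shown as the member with the largest rise.
MMP7 (chr11:102530748-102530997, minus strand): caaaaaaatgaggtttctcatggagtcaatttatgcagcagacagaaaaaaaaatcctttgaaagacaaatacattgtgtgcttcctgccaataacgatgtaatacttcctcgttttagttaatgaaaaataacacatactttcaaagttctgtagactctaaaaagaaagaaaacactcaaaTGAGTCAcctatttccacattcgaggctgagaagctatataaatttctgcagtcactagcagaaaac
MMP10 (chr11:102780629-102780878, minus strand): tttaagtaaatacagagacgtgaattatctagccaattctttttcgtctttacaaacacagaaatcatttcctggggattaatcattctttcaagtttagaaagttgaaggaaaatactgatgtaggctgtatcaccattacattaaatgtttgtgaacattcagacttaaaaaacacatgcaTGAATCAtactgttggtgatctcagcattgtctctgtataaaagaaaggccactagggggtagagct
ADAMTS6 (chr5:65481921-65482170, minus strand): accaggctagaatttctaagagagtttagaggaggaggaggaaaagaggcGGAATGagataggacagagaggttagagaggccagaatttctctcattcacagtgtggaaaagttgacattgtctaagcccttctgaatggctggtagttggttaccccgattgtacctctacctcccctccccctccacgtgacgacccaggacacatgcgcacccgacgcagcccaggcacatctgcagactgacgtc
ADAMTS12 (chr5:33891991-33892240, minus strand): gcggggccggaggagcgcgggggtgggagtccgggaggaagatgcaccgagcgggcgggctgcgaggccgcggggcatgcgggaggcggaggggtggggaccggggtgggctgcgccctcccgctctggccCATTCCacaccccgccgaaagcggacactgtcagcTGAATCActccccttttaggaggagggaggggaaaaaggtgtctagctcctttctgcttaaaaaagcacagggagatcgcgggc
MMP24 (chr20:35226440-35226689, plus strand): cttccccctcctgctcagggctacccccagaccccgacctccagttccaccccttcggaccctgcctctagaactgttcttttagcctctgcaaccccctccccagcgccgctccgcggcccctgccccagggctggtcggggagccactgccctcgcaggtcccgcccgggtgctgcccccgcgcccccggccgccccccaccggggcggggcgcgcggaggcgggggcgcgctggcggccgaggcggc

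Among the MMPs, *MMP2* showed the largest change of any member. *MMP2* (ENSG00000087245, chromosome 16, 55389700 to 55506691) had 102, 108 and 111 CPM in sgCtrl replicates 1 to 3 and 17.6, 17.5 and 16.2 CPM in sg*NF2*-1 replicates 1 to 3. The groups were far apart, and the replicates within each were close. Mean *MMP2* fell from 107 ± 4.59 to 17.1 ± 0.773 CPM (SD, n = 3), to 16.0% of the sgCtrl level (log2 fold change -2.64, standard error 0.10, edgeR adjusted p = 7.8e-16). In all alternatives its log2 fold change stayed between -2.68 and -2.60. *MMP14* (ENSG00000157227, chromosome 14, 22836557 to 22849027), the membrane-anchored activator of pro-MMP2, had 493, 476 and 429.8 CPM in sgCtrl and 323, 327 and 333 CPM in sg*NF2*-1. The groups were apart, with sg*NF2*-1 at 70.3% of the sgCtrl mean (log2 fold change -0.51, standard error 0.08, edgeR adjusted p = 2.5e-05).

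The components of the MMP14, TIMP2 and MMP2 activation complex did not keep their proportions. Per length, *MMP2* stood to *MMP14* at FPKM ratios of 0.187, 0.205 and 0.233 in sgCtrl and 0.0494, 0.0484 and 0.0441 in sg*NF2*-1. The ratio of *TIMP2* to *MMP2* was 9.94, 8.95 and 7.85 in sgCtrl and 44.9, 50.8 and 46.3 in sg*NF2*-1. That of *TIMP2* to *MMP14* was 1.86, 1.84 and 1.83 in sgCtrl and 2.22, 2.45 and 2.04 in sg*NF2*-1. None of these 3 ratios overlapped between the groups, and no test was made on them. They compare transcript levels and not the amounts of the proteins.

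*MMP24*, another membrane-type MMP, known mostly from the nervous system, was the only MMP that rose. *MMP24* (ENSG00000125966, chromosome 20, 35226654 to 35277000) had 9.58, 11.3 and 12.1 CPM in sgCtrl and 22.6, 24.4 and 25.6 CPM in sg*NF2*-1. Each sg*NF2*-1 library was above each sgCtrl library, and the mean reached 220.2% of sgCtrl (log2 fold change 1.14, standard error 0.13, edgeR adjusted p = 1.5e-07). *MMP24* shares 799 bases, or 18.1% of its exonic bases, with *MMP24OS* on the opposite strand, and counting is not stated to use strand. *MMP24OS* itself had a mean of 1041 counts in sgCtrl and 1043 counts in sg*NF2*-1.

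The other membrane-type MMPs and the stromelysins gave smaller or uncertain differences. *MMP15*, a membrane-type enzyme close to *MMP14*, had 75.4, 75.3 and 67.8 CPM in sgCtrl and 68.6, 66.7 and 75.1 CPM in sg*NF2*-1. These groups overlapped, with a log2 fold change of -0.05 (standard error 0.09, edgeR adjusted p = 0.67). *MMP17*, whose product is held by a lipid anchor, and *MMP16* gave log2 fold changes of -0.34 (standard error 0.19) and -0.87 (standard error 0.45), with edgeR adjusted p-values of 0.19 and 0.14. *MMP3* (stromelysin-1) gave -0.51 (standard error 0.27, edgeR adjusted p = 0.14). *MMP11* (stromelysin-3) had 2.03, 1.65 and 1.65 CPM in sgCtrl and 0.852, 0.907 and 0.913 CPM in sg*NF2*-1. The *MMP11* groups did not overlap (log2 fold change -0.99, standard error 0.36, edgeR adjusted p = 0.036), but leaving out any single library gave adjusted p-values from 0.052 to 0.13, and DESeq2 gave 0.058.

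**Figure D2:**
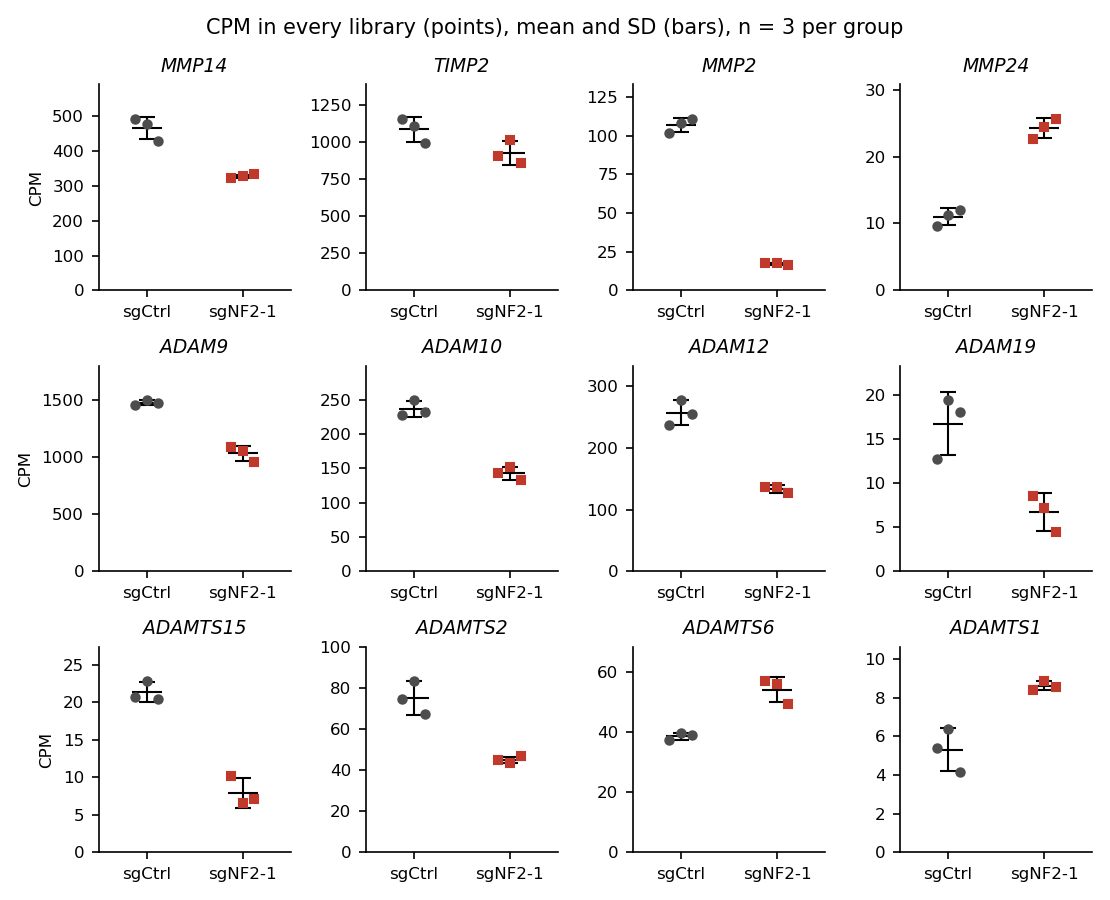
CPM in each library (points) for 12 members, sgCtrl beside sg*NF2*-1, with the group mean and SD as bars (n = 3) and each panel on its own linear axis from 0. The groups are apart for every gene drawn but *TIMP2*, and *MMP24*, *ADAMTS6* and *ADAMTS1* are the ones that rise.

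Of the TIMPs, which bind the active site of the proteases, 3 of 4 were lower, against 16.6% of all tested genes. The log2 fold changes of these 3 lay between -0.44 and -0.23. *TIMP1* (ENSG00000102265, chromosome X, 47582313 to 47586789) had 296, 269 and 298 CPM in sgCtrl and 214, 229.9 and 237 CPM in sg*NF2*-1. Without overlap, its mean was 78.9% of sgCtrl (log2 fold change -0.34, standard error 0.08, edgeR adjusted p = 0.0019). *TIMP3* (ENSG00000100234, chromosome 22, 32801701 to 32863043), which is bound to the matrix and also inhibits ADAM17 and several ADAMTS enzymes, had 42.6, 40.8 and 39.3 CPM in sgCtrl and 30.3, 28.4 and 31.9 CPM in sg*NF2*-1. Here too the groups were apart, at 73.7% of sgCtrl (log2 fold change -0.44, standard error 0.10, edgeR adjusted p = 0.0013). *TIMP2* (ENSG00000035862, chromosome 17, 78852977 to 78925387) had 1156, 1105 and 993 CPM in sgCtrl and 902, 1014 and 858 CPM in sg*NF2*-1. Replicate 2 of sg*NF2*-1 was above replicate 3 of sgCtrl, so the groups overlapped (two-sided exact permutation test, p = 0.2). The log2 fold change of *TIMP2* was -0.23 (standard error 0.09, edgeR adjusted p = 0.048), and the call was lost with no filter (0.057) and without sgCtrl replicate 1 (0.19), sgCtrl replicate 2 (0.14), sg*NF2*-1 replicate 1 (0.15) or sg*NF2*-1 replicate 3 (0.14). *TIMP4* counts were 8, 9 and 12 in sgCtrl and 7, 20 and 11 in sg*NF2*-1, with a log2 fold change of 0.40 (standard error 0.49, edgeR adjusted p = 0.57).

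Of the 7 tested ADAMs with an active protease domain, 6 were lower, against 16.6% of all tested genes, with *ADAM15* the exception. The widely expressed sheddase *ADAM9* had the highest mean FPKM over the 6 libraries, closely followed by *TIMP2* (171 and 168). *ADAM9* (ENSG00000168615, chromosome 8, 38996869 to 39105144) had 1454, 1500.0 and 1471 CPM in sgCtrl and 1085, 1056 and 959.6 CPM in sg*NF2*-1. Its groups were apart, at 70.1% of sgCtrl (log2 fold change -0.51, standard error 0.08, edgeR adjusted p = 3.8e-05). In the same stretch of the chromosome, between 38996869 and 39838289, lie *ADAM32*, which was expressed at a low level, and *ADAM18* and *ADAM2*, both at 0. *ADAM10* (ENSG00000137845, chromosome 15, 58588807 to 58749978), which sheds Notch, cadherins and the amyloid precursor protein, had 228, 249.7 and 232 CPM in sgCtrl and 144, 152 and 133 CPM in sg*NF2*-1. Mean *ADAM10* was 60.3% of sgCtrl, again without overlap (log2 fold change -0.73, standard error 0.08, edgeR adjusted p = 1.6e-07). *ADAM17* (ENSG00000151694, chromosome 2, 9488486 to 9556732), the TNF sheddase, had 112, 117 and 109.6 CPM in sgCtrl and 97.9, 89.9 and 81.2 CPM in sg*NF2*-1. The *ADAM17* groups were also apart, at 79.5% of sgCtrl (log2 fold change -0.33, standard error 0.09, edgeR adjusted p = 0.004), and 12.3% of its exonic bases are shared with *IAH1* on the opposite strand.

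The meltrins *ADAM12* and *ADAM19* and the related *ADAM8* were lower as well, and *ADAM15* was not called. *ADAM12* (ENSG00000148848, chromosome 10, 126012381 to 126388455), a protease of muscle precursors and tumour stroma, had 237, 277 and 255 CPM in sgCtrl and 137, 137 and 126 CPM in sg*NF2*-1. All sg*NF2*-1 values lay far under the sgCtrl range, at 51.9% of its mean (log2 fold change -0.95, standard error 0.08, edgeR adjusted p = 3.1e-09). *ADAM19* (ENSG00000135074, chromosome 5, 157395534 to 157575775) had 12.8, 19.4 and 18.1 CPM in sgCtrl and 8.58, 7.19 and 4.42 CPM in sg*NF2*-1. The replicates spread widely, and the groups were apart, at 40.2% of sgCtrl (log2 fold change -1.30, standard error 0.19, edgeR adjusted p = 7e-06). *ADAM8*, best known from leukocytes, had 22.5, 20.9 and 18.1 CPM in sgCtrl and 15.2, 14.4 and 15.4 CPM in sg*NF2*-1 (log2 fold change -0.45, standard error 0.12, edgeR adjusted p = 0.0064). *ADAM15* (ENSG00000143537, chromosome 1, 155050566 to 155062775), whose disintegrin domain binds integrins, had 382, 347 and 366 CPM in sgCtrl and 353, 362 and 418 CPM in sg*NF2*-1. The *ADAM15* groups overlapped, with a log2 fold change of 0.05 (standard error 0.08, edgeR adjusted p = 0.71).

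Of the 4 tested ADAMs without an active protease domain, which serve in adhesion, 2 were lower, against 16.6% of all tested genes. *ADAM23* (ENSG00000114948, chromosome 2, 206443539 to 206621130), a receptor of LGI proteins at synapses, had 45.0, 42.0 and 41.0 CPM in sgCtrl and 23.4, 26.3 and 26.9 CPM in sg*NF2*-1. It fell to 59.8% of sgCtrl without overlap (log2 fold change -0.74, standard error 0.10, edgeR adjusted p = 3.8e-06). *ADAM22*, another LGI receptor, had 2.60, 3.72 and 1.91 CPM in sgCtrl and 1.93, 0.907 and 1.61 CPM in sg*NF2*-1, and these groups overlapped (two-sided exact permutation test, p = 0.2). Its log2 fold change of -0.88 (standard error 0.34, edgeR adjusted p = 0.046) lost the call in DESeq2 (0.060), with a replicate block (0.054) and without any of 4 libraries: sgCtrl replicate 1 (0.067) or 2 (0.28), or sg*NF2*-1 replicate 2 (0.19) or 3 (0.078). *ADAM11* gave 0.83 (standard error 0.34, edgeR adjusted p = 0.061), with 1.01, 1.10 and 1.12 CPM in sgCtrl and 1.99, 1.75 and 2.04 CPM in sg*NF2*-1. The *ADAM11* groups did not overlap, and its adjusted p was 0.030 with at least 10 counts required in every library and 0.048 over protein-coding genes alone. *ADAM32* gave -0.42 (standard error 0.26, edgeR adjusted p = 0.22).

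The ADAMTS genes moved in both directions. Both tested procollagen N-proteinases, *ADAMTS2* and *ADAMTS14*, were lower, against 16.6% of all tested genes. *ADAMTS2* (ENSG00000087116, chromosome 5, 179110851 to 179345430) had 74.7, 83.3 and 67.1 CPM in sgCtrl and 44.8, 43.6 and 46.6 CPM in sg*NF2*-1. Its mean was 60.0% of sgCtrl, and the groups were apart (log2 fold change -0.74, standard error 0.09, edgeR adjusted p = 1.2e-06). *ADAMTS14* (ENSG00000138316) had 2.73, 2.13 and 2.31 CPM in sgCtrl and 1.31, 0.842 and 1.19 CPM in sg*NF2*-1 (log2 fold change -1.09, standard error 0.33, edgeR adjusted p = 0.013). The *ADAMTS14* call was lost without sgCtrl replicate 1 (0.060) and without sg*NF2*-1 replicate 2 (0.064).

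The proteoglycan-cutting enzymes with enough counts were *ADAMTS15* and *ADAMTS1*, and they moved in opposite directions. *ADAMTS15* (ENSG00000166106, chromosome 11, 130448974 to 130476641) had 20.8, 22.9 and 20.5 CPM in sgCtrl and 10.2, 6.54 and 7.09 CPM in sg*NF2*-1. It was the ADAMTS gene with the largest fall, from 21.4 ± 1.29 to 7.94 ± 1.96 CPM (SD, n = 3) without overlap (log2 fold change -1.42, standard error 0.15, edgeR adjusted p = 6.6e-08). *ADAMTS1* (ENSG00000154734, chromosome 21, 26835747 to 26845409) had 5.39, 6.40 and 4.15 CPM in sgCtrl and 8.41, 8.88 and 8.57 CPM in sg*NF2*-1. Every sg*NF2*-1 library was above the sgCtrl libraries, at 162% of their mean (log2 fold change 0.69, standard error 0.18, edgeR adjusted p = 0.0041).

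*ADAMTS6* and *ADAMTS10*, a related pair that acts on fibrillin microfibrils, were called in opposite directions. *ADAMTS6* (ENSG00000049192, chromosome 5, 65148736 to 65481920) had 37.3, 39.7 and 39.0 CPM in sgCtrl and 57.1, 55.9 and 49.4 CPM in sg*NF2*-1. It rose without overlap to 140.0% of sgCtrl (log2 fold change 0.49, standard error 0.10, edgeR adjusted p = 0.00029). *ADAMTS10* (ENSG00000142303, chromosome 19, 8580242 to 8610735) had 7.42, 6.64 and 5.67 CPM in sgCtrl and 2.90, 4.15 and 2.25 CPM in sg*NF2*-1. It fell without overlap to 47.1% of sgCtrl (log2 fold change -1.08, standard error 0.23, edgeR adjusted p = 0.00054). *ADAMTS12* (ENSG00000151388, chromosome 5, 33523535 to 33892192), which cuts cartilage oligomeric matrix protein, had 75.8, 83.3 and 83.1 CPM in sgCtrl and 59.2, 55.9 and 50.3 CPM in sg*NF2*-1. *ADAMTS12*, whose promoter window held both motifs, was lower in every sg*NF2*-1 library (log2 fold change -0.55, standard error 0.09, edgeR adjusted p = 3.5e-05). *ADAMTS7*, *ADAMTS13* (the von Willebrand factor protease) and *ADAMTS16* were not called, with log2 fold changes of -0.16, 0.00 and 0.17.

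Every member called lower or higher other than *ADAM22* and *TIMP2* had groups that did not overlap. For each of these a two-sided exact permutation test of CPM gave p = 0.10, the smallest that 3 libraries against 3 allow. The calls and the overlap rest on the same libraries, so neither is separate support for the other. Among all tested genes, called or not, the groups did not overlap for 45.3%.

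Summed over the family, the deposited FPKM was 854 ± 20.7 in sgCtrl and 647 ± 16.9 in sg*NF2*-1 (SD, n = 3). The ADAM sum was 317 ± 4.12 in sgCtrl and 231 ± 6.00 in sg*NF2*-1, and that of the MMPs 142 ± 7.15 and 95.1 ± 2.23. The TIMP sum was 368 ± 15 in sgCtrl and 299 ± 15.6 in sg*NF2*-1, and the ADAMTS sum 27.9 ± 1.56 and 21.1 ± 1.05. In each of the 4 families the sum was lower in sg*NF2*-1 by more than the spread between replicates, and the sums rest mainly on the few abundant genes. ADAMTS transcripts were the smallest share in both groups although 10 of their genes were measured well enough to be tested.

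**Figure D3:**
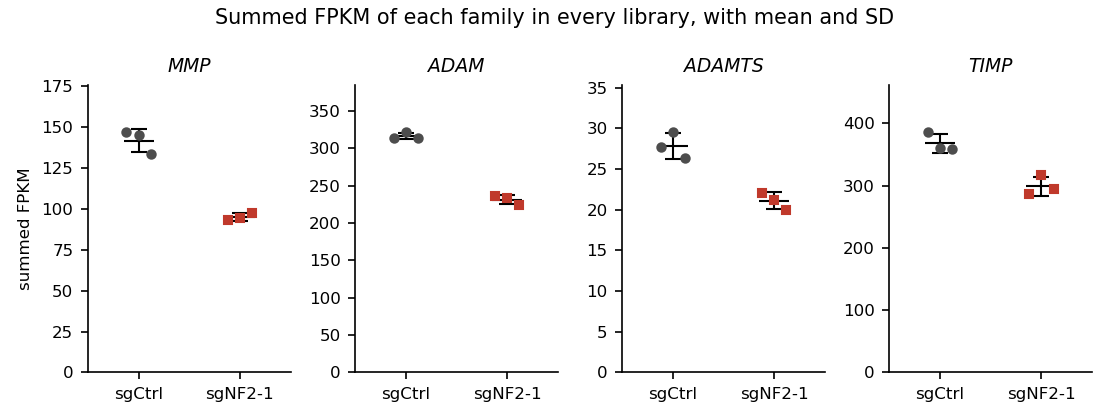
Summed deposited FPKM of each family in every library, sgCtrl beside sg*NF2*-1, with the group means and SD (n = 3). All 4 sums are lower in sg*NF2*-1, from 317 to 231 FPKM for the ADAMs, 142 to 95.1 for the MMPs, 368 to 299 for the TIMPs and 27.9 to 21.1 for the ADAMTS genes.

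The genes that activate, carry, inhibit or clear these proteases, their close relatives and their matrix substrates were counted as a second list of 43 genes, of which 34 were tested. Of these 6 were higher (17.6%) and 12 lower (35.3%), so 52.9% were called. Over all tested genes the shares were 17.7%, 16.6% and 34.3%, so the share of higher genes was near that of all genes. The median log2 fold change of the tested genes of this list was -0.26. The list was written with earlier results of these data known, so its shares are a description only. The matrix substrates carried the largest differences, and all 6 tested genes were called, 5 of them lower. In the partner lists, each of 9 tested genes or fewer, between 11.1% and 40.0% of the tested genes were called lower. *COL3A1*, a fibrillar collagen that ADAMTS2 and ADAMTS14 process, had 31.0, 30.3 and 30.6 CPM in sgCtrl and 2.33, 1.69 and 2.11 CPM in sg*NF2*-1 (log2 fold change -3.90, standard error 0.16, edgeR adjusted p = 2.2e-15). *COL1A2* had 136, 121 and 101 CPM in sgCtrl and 15, 17.8 and 13.6 CPM in sg*NF2*-1 (log2 fold change -2.95, standard error 0.12, edgeR adjusted p = 2.2e-15). *COL1A1*, its partner chain in type I collagen, was much less abundant, at 9.64, 7.01 and 7.12 CPM in sgCtrl and 0.739, 0.972 and 1.40 CPM in sg*NF2*-1 (log2 fold change -2.95, standard error 0.26, edgeR adjusted p = 4e-09). All 3 collagen genes were lower, as were both of their tested N-proteinases. *COL1A1* and *COL3A1* are also in the fibroblast marker list.

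*VCAN*, encoding versican, the substrate of ADAMTS1 and ADAMTS15, had 4.89, 7.31 and 3.95 CPM in sgCtrl and 1.08, 1.43 and 0.913 CPM in sg*NF2*-1 (log2 fold change -2.23, standard error 0.29, edgeR adjusted p = 1.7e-06). The fibrillins, which build microfibrils, were called in opposite directions. *FBN1* had 842, 986 and 856 CPM in sgCtrl and 458, 455 and 378 CPM in sg*NF2*-1 (log2 fold change -1.06, standard error 0.09, edgeR adjusted p = 3e-09). *FBN2* had 36.9, 42.3 and 41.8 CPM in sgCtrl and 61.9, 64.6 and 52.9 CPM in sg*NF2*-1 (log2 fold change 0.57, edgeR adjusted p = 7.6e-05). For both fibrillins the groups did not overlap.

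Among the convertases that remove the prodomains, *FURIN* was lower (log2 fold change -0.38) and *PCSK6* was higher, at 1.08, 1.52 and 0.527 CPM in sgCtrl and 3.64, 3.63 and 2.39 CPM in sg*NF2*-1 (log2 fold change 1.61, standard error 0.35, edgeR adjusted p = 0.00076). Of the 9 genes that carry ADAM10 and ADAM17 to the surface, *TSPAN33*, a tetraspanin partner of ADAM10, rose from 2.54, 2.44 and 4.15 CPM in sgCtrl to 6.99, 6.09 and 6.46 CPM in sg*NF2*-1 (log2 fold change 1.10, standard error 0.22, edgeR adjusted p = 0.0004). The ADAM17 carriers iRhom1 (*RHBDF1*) and iRhom2 (*RHBDF2*) were called in opposite directions, at log2 fold changes of -0.26 and 0.22 (edgeR adjusted p = 0.024 and 0.035), and the other 6 genes of that list were not called. Of the 5 tested inhibitor, inducer and clearance genes, *CD44* (-0.33), a docking site for MMPs, and *LRP1* (-0.29), which clears MMPs and TIMPs by endocytosis, were lower, and *RECK*, a membrane-bound MMP inhibitor, was not called (-0.54, standard error 0.29, edgeR adjusted p = 0.15). Of the 8 tested ADAMTS-like and ADAMTS-modifying genes, *THSD4* was higher (0.93) and the glycosyltransferases *POFUT2* (-0.43) and *B3GLCT* (-0.40), which modify thrombospondin repeats, were lower. Among other metalloproteinases of the same clan, *BMP1*, the procollagen C-proteinase, was lower (-0.45) and *PAPPA2* was higher (0.63).

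**Figure D4:**
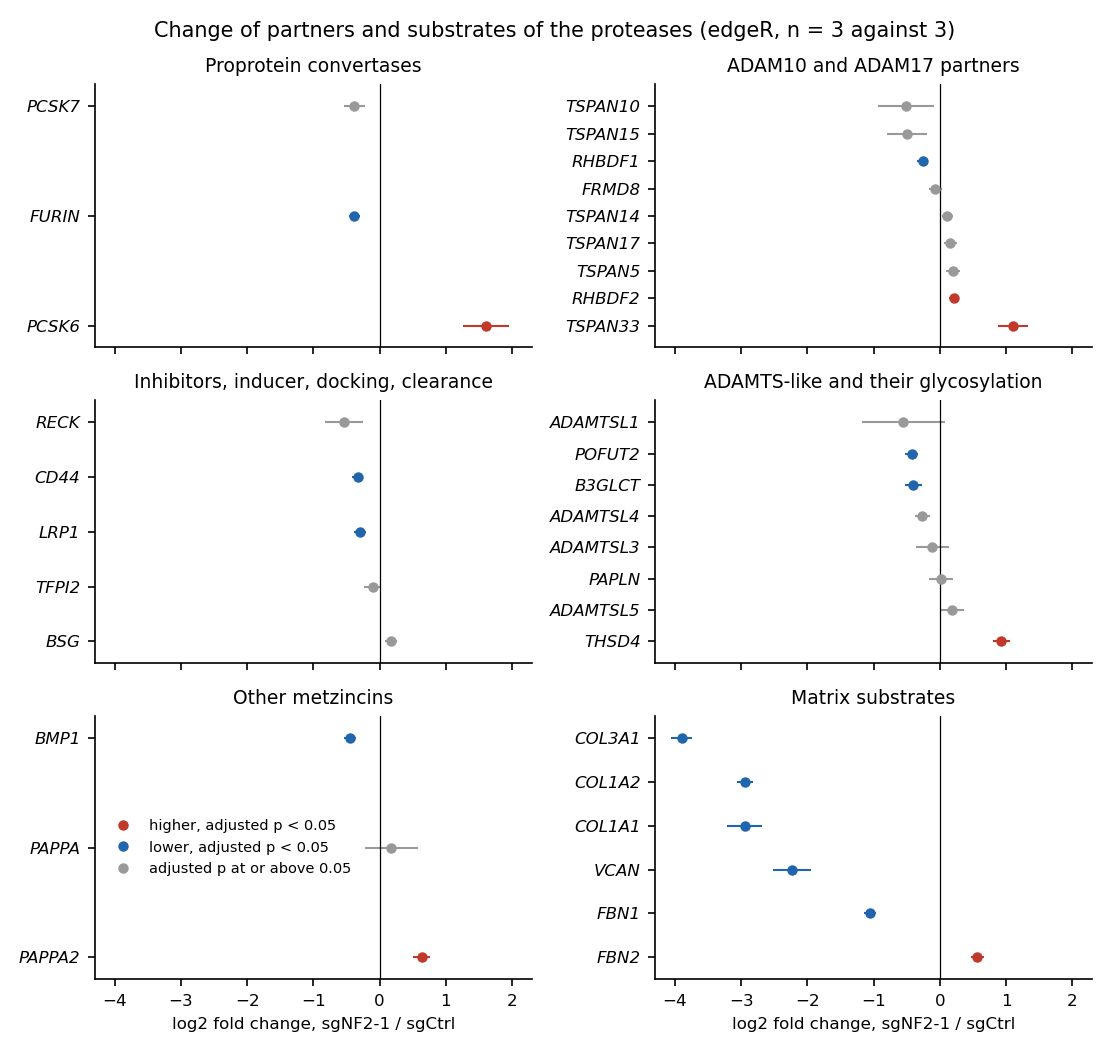
Log2 fold change of the tested partner and substrate genes in sg*NF2*-1 against sgCtrl, from edgeR, in 1 panel per list; bars are 1 standard error and colour marks the call at an adjusted p of 0.05. *COL3A1* at -3.90 is the lowest and *PCSK6* at 1.61 the highest, and 5 of the 6 tested matrix substrates are lower.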

How the data were processed

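Total RNA of 6 H2452 libraries was sequenced as paired-end reads. The files the authors deposited hold unnormalized gene counts, and FPKM beside them. The submitters' processing notes name HISAT2, StringTie 1.3.3b, featureCounts 1.5.0-p3 and hg38, without parameters or a strand setting. All 58735 identifiers are in GENCODE release 29, from which coordinates were taken. Within 1%, deposited FPKM equalled the count divided by gene length and 1 depth per library. This held for every member with at least 100 counts in that library. FPKM served to set genes side by side. It was also given per group as levels, family sums and ratios of genes, on which no test was made.

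Counts were filtered with filterByExpr (minimum count 10, minimum total 15), which kept 14179 genes, normalized by TMM and fitted with edgeR 4.0.16 (R 4.3.3) by quasi-likelihood, with Benjamini-Hochberg adjustment over all tested genes. A call is an adjusted p under 0.05. The standard error of a log2 fold change is its size divided by the square root of F. Named with full values are called members with an absolute log2 fold change of at least 0.5 and the 10 highest by FPKM, and other tested members are given more briefly. Of the partner and substrate genes, those called at 1 or more were to be named in full, and the other called ones were named after their values were seen, as were the counts of selected untested members.

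The groups and replicate numbers come from the sample titles. The members and gene lists were chosen with earlier results of these data known. Depth was 14782423 to 17416463 counts per library, and floors cover counting error only. Alternatives were DESeq2 1.42.0, its size factors or library totals in edgeR, other filters, a replicate block, protein-coding genes only, fold limits and leaving out each library. The procedures were tested on simulated counts. There edgeR called 48.5% of 99 genes with an absolute log2 fold change of 0.5, 78.4% of 97 at 1 and 5 of 13763 unchanged genes. Far fewer genes were changed in the simulation than were called in the data, so these shares need not hold for the data. A member that was not called can therefore still differ.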

Additional observations from a re-analysis of the deposited data

How the results depend on the processing

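The count of higher members was 3 and ranged from 2 to 4 over the alternatives, and that of lower members was 19 and ranged from 14 to 19 (15 to 18 with a library left out). Of the 22 called members 18 kept their call in every alternative other than the fold limits, and *ADAM22*, *ADAMTS14*, *MMP11* and *TIMP2* lost it in some. A limit of 0.5 on the absolute log2 fold change removes *ADAM8*, *ADAM17*, *ADAMTS6*, *TIMP1*, *TIMP2* and *TIMP3*, whose values are smaller. Of the 11 others, *ADAM11* gained a call in some. Among partner and substrate genes, 12 were lower, and 5 when a log2 fold change beyond 0.5 was also required, with adjusted or with unadjusted p. The cause is the added limit itself. Some uncalled members changed sign. *ADAMTS13*, at 0.00, gave -0.0015 in DESeq2, -0.0026 with DESeq2's size factors, -0.031 with library totals, -0.0078 with at least 10 counts in every library and -0.0041 over protein-coding genes alone. With a library left out it ranged from -0.18 to 0.30, *ADAM15* from -0.027 to 0.097 (negative without sg*NF2*-1 replicate 3), *ADAMTS7* from -0.42 to 0.14 (positive without sgCtrl replicate 1) and *TIMP4* from -0.095 to 0.76 (negative without sg*NF2*-1 replicate 2).

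The replicate numbers are not known to pair the libraries. Deviations of same-numbered libraries from their group means correlated at -0.03, 0.06 and 0.05. With the replicate number as a block, 18 members were lower and 3 higher. Depth limits the 33 members that were not tested, and *MMP11*, *MMP16* and *TIMP4*, which were under 1 CPM in at least 1 group.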
